A study of Rattus norvegicus with 30 samples.

Results

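The comparison described here sets the outer medulla (OM) of rats that ate a 4.0% NaCl diet for 14 d (HS14) against the OM of rats kept on 0.4% NaCl (LS). It holds 10 of the 30 mRNAseq libraries of the series, 5 from each diet, and they were chosen by the tissue and diet in their labels. All rats were male Sprague-Dawley (SD) rats without a genetic change. The study gives an age for its rats with implanted flow probes and does not state one for the rats of these libraries. Tissue came from the right kidney, was snap frozen and was not sorted, so each library is the mixed RNA of all cells of the piece. The remaining 20 libraries are from OM after 21 d of the 4.0% NaCl diet (HS21) and from cortex (Cx) on LS, HS14 and HS21, again 5 each.

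The OM lies between the Cx and the papilla. It is rich in thick ascending limbs (TAL), which reabsorb NaCl through the Na-K-2Cl cotransporter encoded by *Slc12a1* and secrete uromodulin, the product of *Umod*. It also holds the straight end of the proximal tubule, collecting ducts and bundles of vasa recta, the capillary loops that supply a region with little oxygen to spare. The question of the comparison is which transcripts of this region differ after 14 d of high salt intake.

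Expression is given in CPM, the read pairs of a gene scaled to a common library size with TMM factors of the 10 libraries, and changes as the log2 ratio of HS14 to LS with its SE. Between 12748841 and 14838776 read pairs were counted on genes in the LS libraries, 5408126 in HS14 replicate 10 and 13024645 to 16557589 in the other HS14 libraries. *Umod* lay between 6153 and 14060 CPM in the 10 libraries and *Slc12a1* between 2449 and 10260 CPM, so TAL transcripts were present in each. The TAL of the Cx expresses *Slc12a1* as well, so these values do not show how much of a piece was OM. The dissected pieces were not alike. The proximal tubule transporter *Slc34a1* spanned 132 to 4639 CPM within the LS group and 344 to 1492 CPM within HS14.

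2 libraries stood apart from the others of their group, and the HS14 to LS comparison was fitted with them (10 libraries) and without them (8 libraries). Where a gene is followed by a pair of log2 ratios, the first is with 10 libraries and the second with 8. LS replicate 2 held cortical transcripts. Its *Slc12a3*, the NaCl cotransporter of the distal convoluted tubule, was at 374 CPM and at 9.17 to 21.5 CPM in the other LS libraries. The inner medullary urea transporter *Slc14a2* had 0 counts there, while the other 9 libraries lay between 5.81 and 9.09 log2 CPM. LS replicate 5 lay at the opposite end and stayed in both fits. It had the lowest *Slc34a1* (7.05 log2 CPM) and the highest *Slc14a2* (9.09) of the 10 libraries. HS14 replicate 10 was the shallow one. Genes that are not protein coding took 8.43% of its counts and 0.860% to 1.12% elsewhere, and relative to its group its 718 genes with under 1000 exon bases lay at a median of -1.60 on the log2 scale and its 1301 genes with over 5000 bases at 0.86. In that library, then, long genes read high and short genes low. In the study's mapping summary its exonic share was the lowest of the 10 libraries. HS14 replicates 6 to 9 each had a higher exonic share than every LS library. In the fit of 8 libraries diet and this share cannot be told apart, and its part in the values was not tested.

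**Figure D1:**
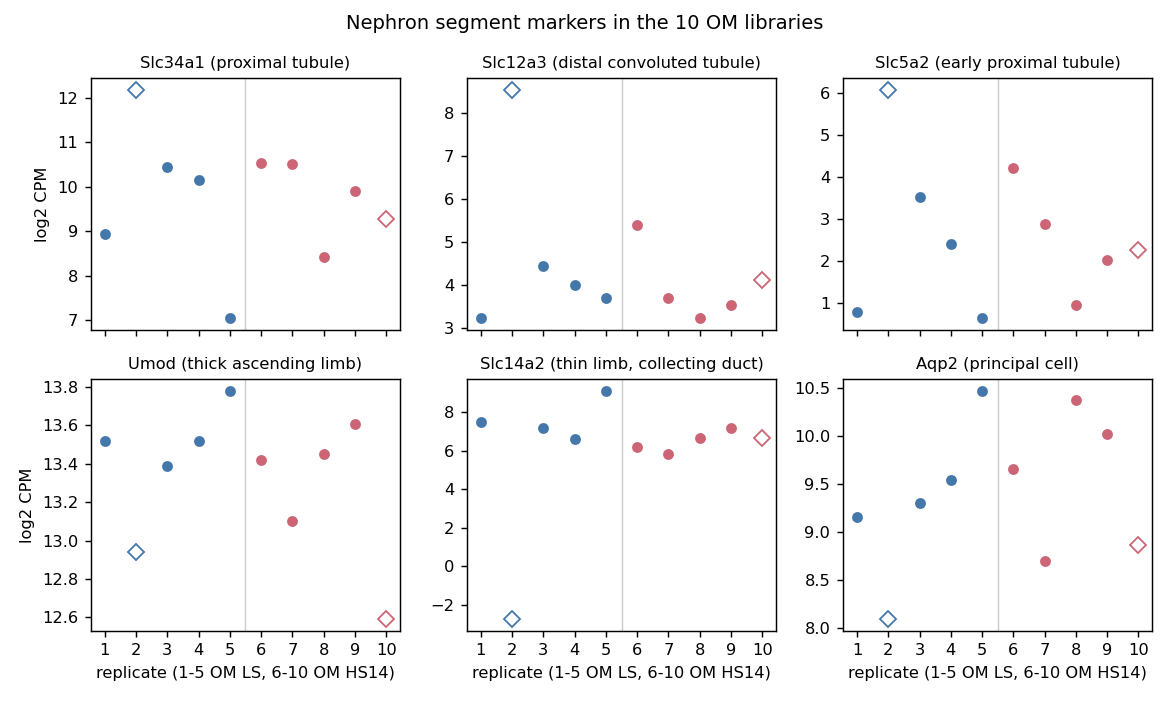
Log2 CPM of 6 segment markers in each of the 10 OM libraries, LS and HS14, by replicate number (one point per library). LS replicate 2 is highest for the cortical markers Slc34a1, Slc5a2 and Slc12a3 and has no Slc14a2 count, while Umod is high in all 10 libraries.

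With all 10 libraries, *Chi3l1* was the 1 gene raised at an adjusted *P* under 0.05, of 14417 tested (0.00694%), and 0 genes (0%) were lowered in edgeR's quasi-likelihood test. *Chi3l1* encodes a secreted chitinase-like glycoprotein that macrophages and injured tubules make. Without both libraries that stood apart, 4 of 14503 genes were raised (0.0276%) and 2 lowered (0.0138%). The raised genes were *Chi3l1*, the brush border dipeptidase gene *Dpep1*, the leukocyte sialoglycoprotein gene *Spn* (CD43) and *S100a9*, a subunit of the calprotectin of neutrophils and monocytes. Of these, *S100a9* passed the low-count filter only through the HS14 libraries. The lowered genes were *Pmepa1*, a membrane protein that dampens TGF-β signaling, and *Sphkap*, which anchors protein kinase A. DESeq2's Wald test on the 10 libraries called 90 raised and 20 lowered of 21686 genes with a *P*. Limma voom with sample quality weights, the weighted test below, gives less weight to libraries that scatter. It called 163 raised (1.13%) and 68 lowered (0.472%). At an unadjusted *P* under 0.05, edgeR placed 617 genes (4.28%) above LS and 209 (1.45%) below with 10 libraries, and 969 (6.68%) and 875 (6.03%) with 8.

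*Chi3l1* (ENSRNOG00000053272, Rnor_6.0 chromosome 13, 51022681 to 51030802) measured 1.18, 0.452, 1.01, 0.748 and 1.20 CPM in LS replicates 1 to 5. In HS14 replicates 6 to 10 it measured 4.49, 8.48, 5.12, 6.96 and 5.58 CPM. The lowest HS14 library was above every LS library, HS14 replicate 10 lay within its group and LS replicate 2 was the lowest of all. The log2 ratio was 2.72 (SE 0.31, edgeR's adjusted *P* = 0.0462, *n* = 5 per group) and 2.60 (SE 0.29, adjusted *P* = 0.0345) with 8 libraries. Its size was stable, between 2.56 and 2.83 over 19 alternative settings, but 8 of the 19 called it, with adjusted *P* from 5.37e-13 to 0.296. It was raised in the Cx at HS14 too, with a log2 ratio of 2.35 (adjusted *P* = 0.00819).

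*Spn* (ENSRNOG00000036711, chromosome 1, 198572999 to 198577226) lay at 15, 7.32, 15.4, 11.4 and 13.9 CPM in LS and at 32.2, 35, 33.4, 26.9 and 33.3 CPM in HS14. The groups did not overlap, and HS14 replicate 10 was level with its group. The log2 ratio was 1.35 (edgeR's adjusted *P* = 0.125) with 10 libraries and 1.20 (SE 0.13, adjusted *P* = 0.0345) with 8. Of 19 alternative settings 6 called it. Among them were DESeq2, the weighted test and edgeR with the mean level of the proximal tubule markers as covariate, each on the 10 libraries.

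*Dpep1* (ENSRNOG00000015880, chromosome 19, 55982740 to 55998208) lay at 5.11, 8.40, 7.85, 5.99 and 5.28 CPM in LS and at 22.6, 19.3, 24.8, 17.1 and 9.82 CPM in HS14. The groups did not overlap, and the lowest HS14 value was that of replicate 10. With 10 libraries the log2 ratio of 1.53 was not called (edgeR's adjusted *P* = 0.341), and with 8 it was 1.79 (SE 0.18, adjusted *P* = 0.0345). Of 19 alternative settings 5 called it. Among them were DESeq2, the weighted test and edgeR with the proximal tubule level as covariate, each on the 10 libraries. *Dpep1* is a gene of the proximal tubule, and the markers of that segment were read beside it. Of 15 markers 0 were called or reached an unadjusted *P* under 0.05 in either fit, and their median log2 ratio was -0.82 with 10 libraries and 0.29 with 8. Of 6 markers of the straight segment (S3) 0 were called in edgeR, and their median was -0.17 and 0.33. With 10 libraries 2 of the 6 were above 0. With 8 all 6 were, 1 of them at an unadjusted *P* under 0.05.

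*S100a9* (ENSRNOG00000011483, chromosome 2, 190097554 to 190100276) was close to absent on LS, at 0.196, 0.271, 0.268, 0.340 and 0.141 CPM. In HS14 replicates 6 to 9 it reached 4.78, 2.29, 5.06 and 8.41 CPM, and replicate 10 had 0 counts. It was too sparse for the test with 10 libraries. With 8 the log2 ratio was 4.38 (SE 0.47, edgeR's adjusted *P* = 0.0345). There it passed the low-count filter only through the HS14 libraries, where it is high, so the call is not independent of that choice. Without a filter on low counts, edgeR with the 10 libraries gave no call of it. DESeq2 on the 10 libraries called it, as did edgeR without HS14 replicate 10 and edgeR with 13 OM libraries. Its partner *S100a8* (chromosome 2, 190073815 to 190074354) had 2 counts over the 5 LS libraries, and 35, 20, 56, 84 and 0 counts in HS14 replicates 6 to 10. The ratio of its pooled rates was 107 (95% interval 29.2 to 888, counting error only). In HS14 replicate 10 a level of up to 0.576 CPM is allowed by a count of 0, and both genes are short.

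*Pmepa1* (ENSRNOG00000050404, chromosome 3, 171294856 to 171342646) lay at 107, 61.6, 94.5, 104 and 85.5 CPM in LS. In HS14 replicates 6 to 9 it lay at 57.1, 50.3, 48.5 and 53.4 CPM, under every LS library, and at 152 CPM in replicate 10, above them all. *Sphkap* (ENSRNOG00000016388, chromosome 9, 89050381 to 89195273) lay at 58.3, 16.5, 45.8, 42.2 and 45.1 CPM in LS and at 17.1, 7.43, 11.1, 9.87 and 56.4 CPM in HS14. Here too HS14 replicate 10 lay apart from its group, while LS replicate 2 was under HS14 replicate 6. These decreases were called without LS replicate 2 and HS14 replicate 10, with log2 ratios of -0.90 (SE 0.09) for *Pmepa1* and -2.08 (SE 0.24) for *Sphkap*, each at edgeR's adjusted *P* of 0.0345. With 10 libraries the log2 ratios were -0.33 and -1.06, with edgeR's adjusted *P* of 0.994 and 0.973. The weighted test on the 10 libraries called both lowered, each at an adjusted *P* of 0.0155. It gave HS14 replicate 10 a weight of 0.103, the lowest of the 10, LS replicate 2 one of 0.4 and LS replicate 5 one of 0.475. A single further library left out of the 8 reduced the calls to between 0 and 1 raised and between 0 and 1 lowered genes. In the study's mapping summary HS14 replicate 10 had the largest intronic share of the 10 libraries. Within LS that share ranked the libraries in the same order as *Pmepa1*. *Sphkap* was highest and lowest in the LS libraries where that share was. The part of the intronic share in these decreases was not tested.

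**Figure D2:**
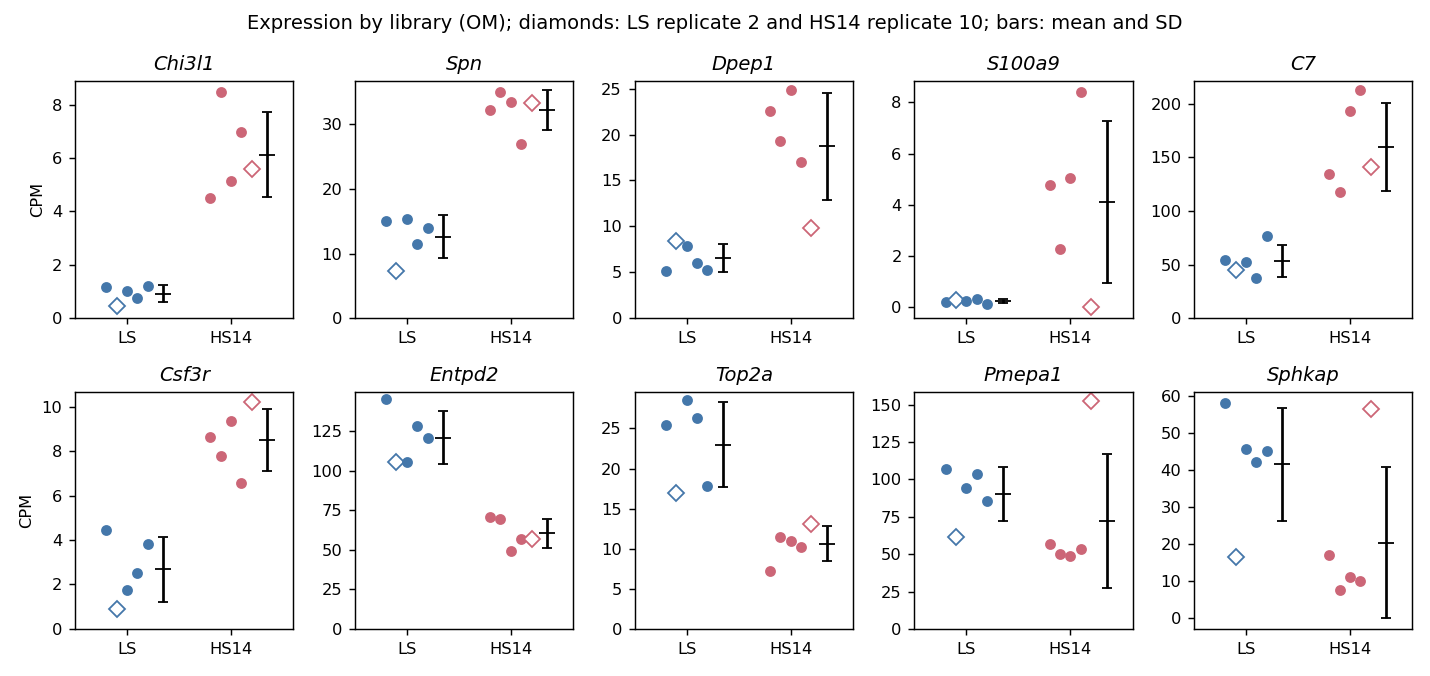
CPM of 10 genes in the LS and HS14 libraries of the OM (one point per library, bars give the mean and SD of 5 libraries, open diamonds mark LS replicate 2 and HS14 replicate 10). Chi3l1, Spn, Dpep1 and C7 are higher and Entpd2 and Top2a lower in every HS14 library than in any LS library, while HS14 replicate 10 lies opposite to its group for S100a9, Pmepa1 and Sphkap.

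In 151 of the 14417 genes (1.05%) all 5 HS14 libraries lay above all 5 LS libraries, and in 73 (0.506%) they lay below. After *Chi3l1*, the protein-coding genes with the largest log2 ratios among those above were *Dmbt1* (2.54 and 2.66), a secreted scavenger glycoprotein, the activating receptor *Ncr2* (2.10 and 1.78), *LOC299282* (1.79 and 1.34), the formyl peptide receptor *Fpr2* (1.76 and 1.67), the integrin *Itgam* (1.65 and 1.59) of myeloid cells, the granulocyte colony-stimulating factor receptor *Csf3r* (1.65 and 1.37), the cadherin *Cdh4* (1.6 and 1.04), complement *C7* (1.58 and 1.57) and the lymphangiogenic growth factor *Figf* (1.58 and 1.55). None of these 9 was called in edgeR with 10 or with 8 libraries, while DESeq2 and the weighted test called all 9 and edgeR with the proximal tubule level as covariate called *Itgam*, *Csf3r* and *C7*. Their unadjusted *P* in edgeR with 10 libraries ranged from 2.96e-05 (*C7*) to 0.00364 (*Ncr2*).

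*C7*, a component of the complement membrane attack complex, had the smallest *P* among them. It is ENSRNOG00000061379 on chromosome 2 (54709138 to 54777729). It lay at 54.7, 45.2, 52.3, 37.4 and 77.0 CPM in LS and at 134, 118, 193, 213 and 141 CPM in HS14, with no overlap. The log2 ratio was 1.58 (SE 0.23, edgeR's adjusted *P* = 0.125), and 1.57 (SE 0.26, adjusted *P* = 0.129) with 8 libraries. *Csf3r* lay at 4.45, 0.903, 1.74, 2.52 and 3.80 CPM in LS and at 8.63, 7.80, 9.35, 6.58 and 10.2 CPM in HS14, where the lowest LS value was that of replicate 2.

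On the lower side *Entpd2* (ENSRNOG00000013102, chromosome 3, 2617805 to 2623445), an ectonucleotidase that hydrolyzes extracellular ATP, had the smallest *P*. It lay at 145, 105, 105, 128 and 121 CPM in LS and at 70.7, 69.2, 49.0, 57.0 and 56.8 CPM in HS14. The groups were separate, and LS replicate 2 and HS14 replicate 10 lay within the range of the others of their group. The log2 ratio was -1.0 (SE 0.15, edgeR's adjusted *P* = 0.125) and -1.02 with 8 libraries (adjusted *P* = 0.103). Of 19 alternative settings 3 called it: DESeq2, the weighted test and edgeR with the proximal tubule level as covariate.

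Leukocyte markers lay above LS. All 12 tested general leukocyte markers had a log2 ratio above 0, 8 of them at an unadjusted *P* under 0.05, and their median was 0.72. In edgeR 0 of them were called with 10 or with 8 libraries. With 8 libraries 10 of 12 had an unadjusted *P* under 0.05 above LS and the median was 0.72. The median over all genes tested was -0.02 and 0.01. The weighted test called 4 of the 12, and DESeq2 called 3, *Ptprc*, *Itgal* and *Cd53*. Their mean level was 3.03 to 4.15 log2 CPM in LS and 4.17 to 4.62 in HS14, and their summed level 174 to 377 CPM and 426 to 515 CPM. *Ptprc*, the CD45 phosphatase of all leukocytes, lay at 30.6, 12.4, 29.0, 17.6 and 25.5 CPM in LS and at 40.4, 44.3, 41.0, 48.9 and 69.3 CPM in HS14. The groups did not overlap, the lowest value was that of LS replicate 2 and the highest that of HS14 replicate 10. Its log2 ratio was 1.08 (edgeR's adjusted *P* = 0.405) and 0.77 with 8 libraries (adjusted *P* = 0.193). In such tissue RNA, more cells of a type and more RNA per cell cannot be told apart.

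Markers of the single leukocyte types moved unevenly. Of 8 tested T and NK cell markers 4 were above LS at an unadjusted *P* under 0.05 (median log2 ratio 0.85), among them *Cd8a* (1.17 and 1.10), *Cd4* (0.84 and 0.59) and the T cell receptor subunit *Cd3e* (1.39 and 1.08, from 0.0903 to 1.38 CPM in LS to between 1.6 and 2.91 CPM in HS14). Of 11 macrophage markers 3 were, *Csf1r* (0.87 and 0.66), *Adgre1* (0.63 and 0.40) and *Cd68* (0.89 and 0.89), with a list median of 0.59. With 8 libraries these counts were 5 of 10 and 7 of 11. B and plasma cell markers stood near the detection limit in both groups, summing to 1.57 to 4.58 CPM in LS and 0 to 3.03 CPM in HS14. The neutrophil and mast cell markers summed to 1.18 to 4.85 CPM in LS and 11.6 to 23.8 CPM in HS14, while 2 of those 8, *Mpo* and *Fcer1a*, had 0 counts in all 10 libraries.

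Genes of the signals that leukocytes send and receive gave 0 calls in edgeR with 10 or with 8 libraries. Of 15 cytokine and chemokine receptors and antagonists tested, 9 lay above LS at an unadjusted *P* under 0.05 and 0 below, with a median log2 ratio of 0.88 (8 of 15 and 0.75 with 8 libraries). The mean level of the list did not overlap, at 1.29 to 2.22 log2 CPM in LS and 2.27 to 2.60 in HS14. The interleukin-10 receptor gene *Il10ra* (log2 ratio 1.13 and 1.0), the TNF receptor gene *Tnfrsf1b* (1.29 and 0.97), the fractalkine receptor gene *Cx3cr1* (1.18 and 0.92) and the interleukin-1 antagonist gene *Il1rn* (1.45 and 1.41) had the smallest *P*, and in each the groups were separate. DESeq2 called these 4 genes, the weighted test called *Il10ra*, *Il1rn*, *Tnfrsf1b* and *Il2rg*, and edgeR called *Il10ra* with the proximal tubule level as covariate and *Tnfrsf1b* with 13 OM libraries. Among 21 ligands 8 lay above LS at an unadjusted *P* under 0.05, and 11 of 22 with 8 libraries. The stromal chemokine *Cxcl12*, which had the smallest *P*, lay at 222 to 260 CPM in LS and 278 to 473 CPM in HS14, with a log2 ratio of 0.68 (SE 0.16) and 0.78 with 8 libraries. The neutrophil chemokine *Cxcl1* had a log2 ratio of 3.0 in both fits, from 0.0903 to 0.774 CPM in LS to between 0.770 and 9.73 CPM in HS14, the macrophage growth factor *Csf1* one of 1.05 (0.94 with 8) and the B cell chemokine *Cxcl13* one of 1.55 (1.51 with 8). DESeq2 called *Cxcl12* and *Cxcl1*, and the weighted test *Cxcl12*.

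Of 12 complement genes tested, 7 lay above LS at an unadjusted *P* under 0.05 (8 with 8 libraries) and 0 below. Their median log2 ratio was 0.95, and 0.68 with 8 libraries. Their mean level was 2.37 to 3.28 log2 CPM in LS, lowest in replicate 2, and 3.46 to 4.05 in HS14. Beside *C7* the smallest *P* belonged to *C3* (log2 ratio 0.99 and 0.63), the central component, the classical pathway protease *C1r* (1.30 and 1.22) and the anaphylatoxin receptor *C3ar1* (0.99 and 0.69). Of these the weighted test called *C1r* beside *C7*. *C3* overlapped between the groups, at 15.9 to 29.6 CPM in LS and 21.9 to 74.9 CPM in HS14, with the highest value in replicate 10. The MHC class II genes, which present antigen to CD4 T cells, lay above LS in 7 of 7 tested, 3 at an unadjusted *P* under 0.05, and in 8 of 8 with 8 libraries, 4 at that level. The 3 were the class II transactivator *Ciita* (0.88 and 0.70), *RT1-Da* (0.79 and 0.78) and the invariant chain *Cd74* (0.71 and 0.74). Of these the weighted test called *Ciita*. The *RT1* genes belong to a family of close copies between which reads can be shared. *RT1-Db1* was at 8.40 to 52.3 CPM in LS and 5.78 to 86.2 CPM in HS14. The phagocyte NADPH oxidase genes *Cybb* (1.13 and 0.79) and *Ncf1* (0.79 and 0.76) were above LS at an unadjusted *P* under 0.05, and the weighted test called *Ncf1*. *Nox4*, the oxidase of tubules, had a log2 ratio of -1.72 with 10 libraries and -0.62 with 8, and its highest value, 78.2 CPM, was that of LS replicate 2.

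**Figure D3:**
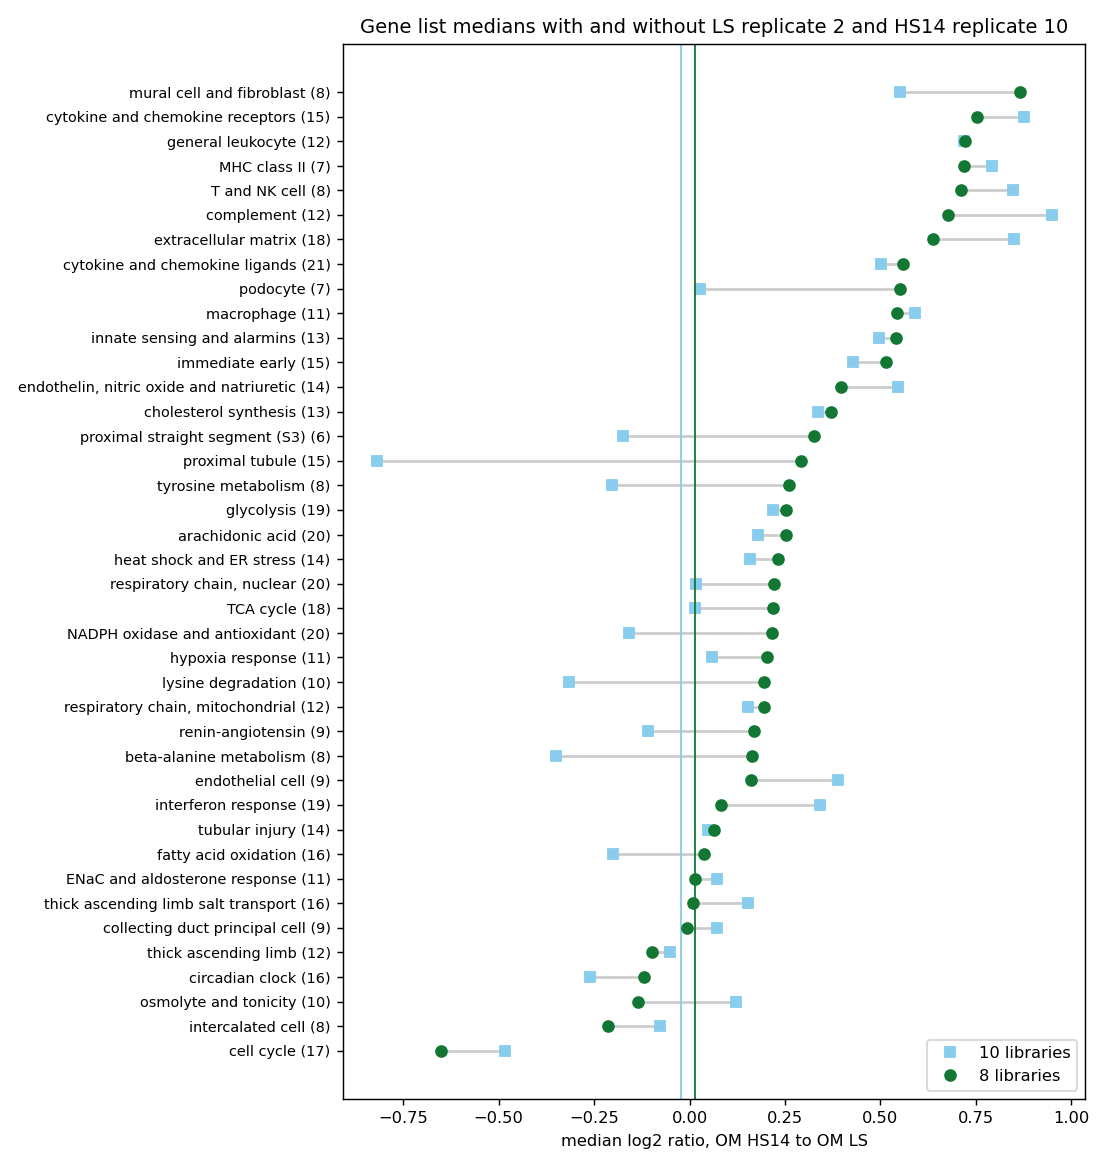
Median log2 ratio of HS14 to LS over the tested members of each gene list, with 10 libraries (squares) and without LS replicate 2 and HS14 replicate 10 (circles). Vertical lines give the median over all genes tested. Complement, cytokine receptor, leukocyte and matrix lists lie to the right in both fits and the cell cycle list to the left, while the proximal tubule list changes side.

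Matrix and stromal genes also lay above LS, with 0 calls in edgeR with 10 or with 8 libraries. With the proximal tubule level as covariate edgeR called the matrix genes *Col5a1* and *Fn1*, DESeq2 called *Lox* and *Loxl1*, and the weighted test called *Loxl1*. Of 18 extracellular matrix genes 11 were above at an unadjusted *P* under 0.05 and 0 below (9 of 18 with 8 libraries), with a median log2 ratio of 0.85 (0.64 with 8). The collagen crosslinking enzyme *Lox* (1.44 and 1.45), its relative *Loxl1* (1.06 and 0.97), the fibrillar collagen *Col3a1* (0.87 and 0.88) and *Col6a1* (0.99 and 0.89) were among them. *Col3a1* lay at 162, 158, 164, 109 and 257 CPM in LS and at 197, 367, 402, 303 and 280 CPM in HS14, where LS replicate 5 and HS14 replicate 6 overlapped. Of 8 mural cell and fibroblast markers 4 lay above (median 0.55), and 5 with 8 libraries (median 0.87). They included the fibroblast receptor *Pdgfra*, at 52.9, 94.2, 88.8, 66.3 and 78.5 CPM in LS and at 106, 106, 145, 152 and 173 CPM in HS14. These groups did not overlap, and the log2 ratio was 0.84 (edgeR's adjusted *P* = 0.397) and 0.83 with 8 libraries (adjusted *P* = 0.194). The proteoglycan *Dcn* (0.76 and 0.92), the pericyte receptor *Pdgfrb* (0.78 and 0.62) and the smooth muscle gene *Tagln* (0.82 and 1.19) were the others. DESeq2 called *Dcn* and *Pdgfra* of this list, and the weighted test *Dcn* and *Tagln*. The list summed to 333 to 563 CPM in LS and 572 to 782 CPM in HS14, and its part in the matrix values was not tested.

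Of 14 genes of endothelin, nitric oxide and natriuretic peptide signaling, which oppose salt retention in this region, 7 lay above LS at an unadjusted *P* under 0.05 and 0 below. With 8 libraries there were 3, and the median went from 0.55 to 0.40. The soluble guanylyl cyclase subunit *Gucy1a3* was the clearest, at 15.7, 16.8, 15.2, 11.6 and 18.3 CPM in LS and at 19.9, 29.4, 31.2, 22.8 and 29.3 CPM in HS14. The groups did not overlap, and the log2 ratio was 0.77 in both fits (edgeR's adjusted *P* = 0.397 and 0.210). DESeq2 and the weighted test called *Gucy1a3* raised. The atrial natriuretic peptide receptor *Npr1* (0.60 and 0.45), endothelial nitric oxide synthase *Nos3* (0.70 and 0.72) and the endothelin-converting enzyme *Ece1* (0.33 and 0.24) were also above LS. *Nos1*, which is abundant in macula densa and collecting duct, was at 5.51 to 12.8 CPM in LS and 6.56 to 30.0 CPM in HS14, with a log2 ratio of 0.77 that became 0.20 with 8 libraries.

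Cell cycle genes lay below LS. Mitotic genes are transcribed mainly in dividing cells. Many of their promoters carry CCAAT boxes, bound by NF-Y, and a CHR element of the form TTTGAA, bound by repressor complexes in resting cells. All 17 cell cycle genes tested had a log2 ratio below 0, 7 of them at an unadjusted *P* under 0.05 and 0 called in edgeR, with a median of -0.48. With 8 libraries 16 of 17 were below and 10 of those had an unadjusted *P* under 0.05. The median was then -0.65. On the 10 libraries the weighted test called 7 of 17 and DESeq2 called *Top2a*, *Cdk1* and *Aurkb*. The mean level of the list did not overlap between the groups, at 3.19 to 3.74 log2 CPM in LS and 2.52 to 3.03 in HS14.

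*Top2a* (ENSRNOG00000053047, chromosome 10, 86901007 to 86932154), the topoisomerase that untangles chromosomes in mitosis, lay at 25.4, 17.0, 28.5, 26.3 and 17.8 CPM in LS and at 7.21, 11.5, 11, 10.2 and 13.1 CPM in HS14. Every HS14 library was below every LS library. The log2 ratio was -1.12 (SE 0.21, edgeR's adjusted *P* = 0.367) and -1.29 with 8 libraries (adjusted *P* = 0.103). The mitotic kinase gene *Cdk1* (-1.13 and -0.98) lay at 8.71, 7.77, 7.72, 6.87 and 6.27 CPM in LS and at 2.85, 5.01, 4.42, 2.60 and 1.93 CPM in HS14, again without overlap. The cyclin gene *Ccna2* had log2 ratios of -0.75 and -0.82, and the chromosomal passenger kinase gene *Aurkb* of -1.14 and -1.22. *Mki67*, the proliferation marker, lay at 15.8 to 29.7 CPM in LS, at 6.28 to 14.3 CPM in HS14 replicates 6 to 9 and at 38.3 CPM in replicate 10. Its log2 ratio was -0.48 with 10 libraries and -1.17 with 8.

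The 10 protein-coding genes with the most negative log2 ratios among those without overlap include the checkpoint mediator *Clspn* (-1.60 and -1.56), the spindle protein *Ckap2l* (-1.47 and -1.32), the kinase *Pbk* (-1.33 and -1.27), the cytokinesis exchange factor *Ect2* (-1.32 and -1.06), the kinesin *Kif18b* (-1.21 and -1.39), *Troap* (-1.16 and -0.92), the kinetochore protein *Ndc80* (-1.15 and -1.23) and *Aurkb*. Their unadjusted *P* ranged from 0.000886 (*Kif18b*) to 0.0184 (*Troap*). The others are *Ammecr1* (-1.23 and -1.32) and *Robo3* (-1.91), whose log2 ratio came to -0.63 without LS replicate 2, at 29.9 CPM, and HS14 replicate 10.

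The promoters of *Top2a* and *Cdk1* are shown because both genes had no overlap and both carry the 2 motifs. The sequences are the 90 bases before the start site from RefSeq on build GRCr8, 5′ to 3′ on the strand of the gene, with each CCAAT or TTTGAA on either strand in capitals (ATTGG and TTCAAA are their reverse complements):
Top2a, chr10:84473094-84473183, minus strand: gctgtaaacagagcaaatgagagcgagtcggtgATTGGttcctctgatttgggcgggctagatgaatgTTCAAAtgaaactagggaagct
Cdk1, chr20:19265203-19265292, plus strand: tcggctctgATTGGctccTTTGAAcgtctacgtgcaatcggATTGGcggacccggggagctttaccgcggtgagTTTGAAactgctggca

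Of the 17 cell cycle genes of the list 13 had a promoter in the RefSeq table. In the 250 bases before the start site, CCAAT was found in 10 of the 13 and in 34% of all 33469 promoters, and TTTGAA in 5 of 13 and 16.2% of all. Both motifs together were in 4 of 13 (*Birc5*, *Cdk1*, *Mki67* and *Top2a*) and in 5.87% of all. A match of letters describes the sequence and does not show binding.

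Salt transport genes of the TAL were not called in edgeR. Of 16 such genes 0 had an unadjusted *P* under 0.05 with 10 libraries, and with 8 libraries 3 had one below LS. Their median log2 ratio was 0.15 and 0.01. *Slc12a1* lay at 6392, 2449, 5958, 5916 and 7460 CPM in LS and at 5201, 4761, 6508, 7251 and 10260 CPM in HS14. LS replicate 2 was lowest and HS14 replicate 10 highest, and the log2 ratio of 0.27 (SE 0.33) became -0.12 (SE 0.17) with 8 libraries. The potassium channel *Kcnj1* had log2 ratios of 0.53 and 0.17. The sodium pump subunit *Atp1b1* kept a log2 ratio of 0.33 in both fits (edgeR's adjusted *P* = 0.994 and 0.397), at 3335 to 4545 CPM in LS and 4175 to 5810 CPM in HS14. The 12 TAL markers summed to 12280 to 25330 CPM in LS and 16130 to 23270 CPM in HS14, and *Umod* had a log2 ratio of -0.18 (SE 0.27).

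For transporters of other segments the values moved when LS replicate 2 and HS14 replicate 10 were left out. *Slc12a3* had a log2 ratio of -2.22 with 10 libraries and 0.35 with 8, and the Na/H exchanger *Slc9a3* one of 0.03 and -0.15. The epithelial sodium channel subunits *Scnn1a* (-0.08 and -0.15), *Scnn1b* (0.07 and 0.01) and *Scnn1g* (0.17 and 0.08) were not called. None of the 15 proximal tubule markers was called, but their median went from -0.82 to 0.29 when both libraries were left out. The range of that list was 3.72 to 9.09 log2 CPM in LS, from replicate 5 to replicate 2, and 5.28 to 7.42 in HS14. Only replicate 2 of these LS extremes was left out with 8 libraries.

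Metabolic genes gave small ratios. Of 20 nuclear genes of the respiratory chain 0 had an unadjusted *P* under 0.05 with 10 libraries, and 9 lay above LS at that level with 8, at a median log2 ratio of 0.22. Of 18 TCA cycle genes the counts were 0 and 8, with a median of 0.22 with 8 libraries. Both lists were lowest in HS14 replicate 10, at 7.34 and 7.57 log2 CPM, and within LS in replicate 5, which both fits kept. Of 19 glycolysis genes 17 had a log2 ratio above 0 and 1 an unadjusted *P* under 0.05, and the median was 0.22 (19 above 0, 4 and 0.25 with 8 libraries). Hexokinase *Hk1* had a log2 ratio of 0.31 (0.07 with 8) and lactate dehydrogenase *Ldha* one of 0.22 (0.23 with 8). The uncoupling protein *Ucp2* (0.31 and 0.27), the monocarboxylate transporter *Slc16a1* (0.22 and 0.06) and arginase *Arg2* (0.29 and 0.69) were not called, nor was the TGF-β related gene *Nrep* (-0.50 and -0.59). The lists for degradation of lysine (median -0.32 and 0.20), tyrosine (-0.20 and 0.26) and β-alanine (-0.35 and 0.16) changed sign between the fits and had 0 genes at an unadjusted *P* under 0.05 with 10 libraries. Within LS these lists were highest in replicate 2, which was left out with 8 libraries, and lowest in replicate 5, which was kept.

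All 13 cholesterol synthesis and uptake genes had a log2 ratio above 0 in both fits, 4 of them at an unadjusted *P* under 0.05. Among them were the sterol sensor *Insig1* (0.77 and 0.69) and the synthesis enzymes *Hmgcs1* (0.72 and 0.56) and *Cyp51* (0.44 and 0.37). Of 16 clock genes *Per3* (-0.70 and -0.72) and *Nr1d2* (-0.41 and -0.39), repressors of the loop, lay below LS without overlap, and the activator *Npas2* lay above at an unadjusted *P* under 0.05, with a log2 ratio of 1.08 (0.56 with 8 libraries). *Per3* lay at 65.1 to 95.3 CPM in LS and 44.7 to 59.6 CPM in HS14. According to the study, sampling took place at a matched time of day to limit diurnal effects. The hour of each sample is not given, and time of day was not tested. DESeq2 called *Per3* and *Nr1d2*, and the weighted test *Per3*.

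Whether the OM changed differently from the Cx at HS14 was asked of the interaction of tissue and diet in a fit of 20 libraries. The kidneys were dissected into both tissues, so Cx and OM libraries of a diet can come from the same rats, but no source used here ties equal numbers to a rat, and the libraries were fitted as separate samples. In edgeR 0 of 15091 genes were called in either direction. There 281 (1.86%) had an unadjusted *P* under 0.05 with OM above Cx and 278 (1.84%) below. DESeq2 called 8 and 3 of 22775 genes with a *P*. Without LS replicate 2 and HS14 replicate 10 of the OM (18 libraries) 674 of 15184 genes (4.44%) had an unadjusted *P* under 0.05 with OM above Cx and 1121 (7.38%) below, and with the replicate number as a block 267 (1.77%) and 222 (1.47%). Of 18 extracellular matrix genes, 8 had OM above Cx at an unadjusted *P* under 0.05 and 0 below, with a median interaction of 0.73, and 7 and 0.54 with 18 libraries, and 9 and 0.81 with the replicate block. The mural cell and fibroblast markers moved with them, at 3 of 9 above and a median of 0.37 (4 of 9 and 0.59 with 18 libraries), and their part in the matrix values was not tested. For *Col3a1* the log2 ratio was 0.87 in the OM and -0.17 in the Cx, with an unadjusted *P* of 0.00475 for the interaction in edgeR. With OM and Cx values in that order, the laminin chain *Lamc3* (1.21 and -0.38), *Aebp1* (0.90 and -0.47), a collagen-binding protein of fibroblasts, and *Figf* (1.58 and 0.19) went the same way, with unadjusted *P* of 9.79e-05, 0.000227 and 0.00127. *C7* (1.58 and 0.46), *Gucy1a3* (0.77 and -0.09) and *Dpep1* (with an interaction of 1.24) were further examples, with unadjusted *P* of 0.00918, 0.00073 and 0.00148. *Entpd2* was lower in the OM (-1.0) than in the Cx (-0.21), with an unadjusted *P* of 0.000126. Over these 8 genes the unadjusted *P* lay between 4.04e-05 and 0.0151 with 18 libraries and between 0.000152 and 0.00323 with the replicate block, each in the same direction.

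For leukocyte markers no difference between the tissues was detected by this test. Of 12 general leukocyte markers 0 had an unadjusted interaction *P* under 0.05 in either direction, with a median of 0.04 (0 and -0.05 with 18 libraries), while 7 of 12 were called raised in the Cx (median 0.76), where 162 of 14181 genes were raised (1.14%) and 168 lowered (1.18%). *Ptprc* had a log2 ratio of 0.78 in the Cx (adjusted *P* = 0.0153) and 1.08 in the OM, and *Csf3r* of 1.64 (adjusted *P* = 0.0210) and 1.65. For the cell cycle list the counts were 0 above and 0 below of 17, with a median of -0.17, and 0 above and 3 below with a median of -0.30 with 18 libraries, and the median in the Cx was -0.58 with 2 genes called.

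**Figure D4:**
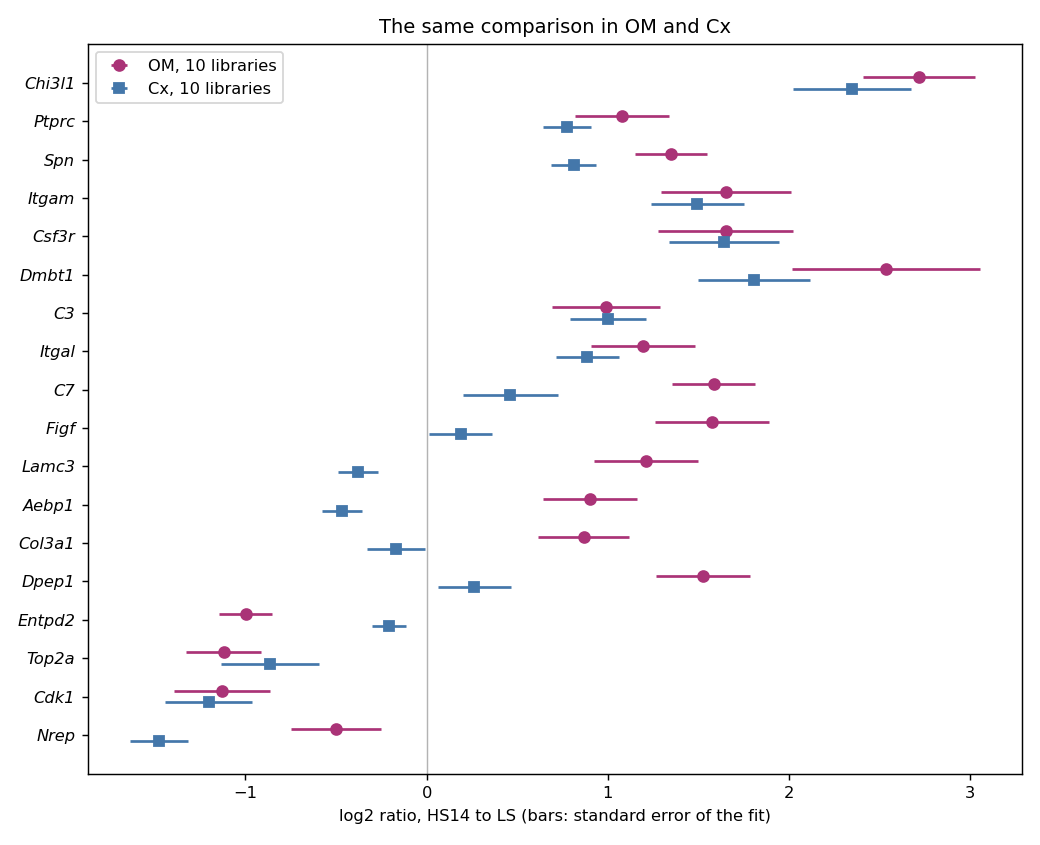
Log2 ratio of HS14 to LS with its SE for 18 genes in the OM and in the Cx (edgeR, 5 libraries per group). Leukocyte genes such as Ptprc and Csf3r lie at similar values in both tissues, while Lamc3, Aebp1 and Col3a1 lie above 0 in the OM and below 0 in the Cx.

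The OM libraries of HS21 were set against those of HS14, which serve in both comparisons, so the 2 sets of values are not independent. Levels are in CPM on the scale of the 15 OM libraries, as mean ± SD of 5. In edgeR 0 of 14499 genes were called, while 337 (2.32%) had an unadjusted *P* under 0.05 with HS21 above and 210 (1.45%) below. DESeq2 called 20 and 11 of 21673 genes with a *P*. *Chi3l1* was at 0.924 ± 0.323 on LS, 6.19 ± 1.64 at HS14 and 10.3 ± 3.44 at HS21 (log2 ratio of HS21 to HS14 0.73, SE 0.28, edgeR's adjusted *P* = 0.961). *Entpd2* was at 121.7 ± 17.5, 61.2 ± 9.55 and 62.7 ± 14.3, and *C7* at 53.6 ± 15, 161 ± 39.7 and 171 ± 61.6, with log2 ratios of HS21 to HS14 of 0.03 (SE 0.17) and 0.08 (SE 0.26). *Top2a* was at 23.2 ± 5.48, 10.7 ± 2.25 and 9.12 ± 2.23. *S100a9* was at 0.245 ± 0.0769, 4.13 ± 3.15 and 2.10 ± 1.08.

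Of 12 general leukocyte markers 9 and of 10 T and NK cell markers 7 lay above HS14 at HS21, at an unadjusted *P* under 0.05 and with 0 called in edgeR. Without HS14 replicate 10 these counts were 11 of 13 and 9 of 11, where 431 of 14635 genes (2.94%) lay above at that level and 326 (2.23%) below. The integrin *Itgax* (CD11c) was at 10.8 ± 1.18 on LS, 14.5 ± 3.28 at HS14 and 29.8 ± 5.57 at HS21 (log2 ratio of HS21 to HS14 1.04, edgeR's adjusted *P* = 0.954), and the chemokine *Cxcl16* at 64.1 ± 8.36, 76.9 ± 5.90 and 114 ± 12.5. *Itgal*, the integrin LFA-1 of leukocytes, was at 13.9 ± 3.53, 32.2 ± 13.5 and 61.0 ± 15.8. Of 15 immediate early genes 7 lay below HS14 at an unadjusted *P* under 0.05, and 11 without HS14 replicate 10. *Fos* was at 40.1 ± 38.4 on LS, 50.3 ± 42.4 at HS14 and 3.41 ± 1.94 at HS21, and *Egr1* at 258 ± 189, 322 ± 251 and 25.8 ± 17.6. Within both earlier groups these genes spanned a wide range, *Fos* from 2.23 to 100.2 CPM at HS14, while at HS21 it lay between 1.65 and 6.55 CPM. Of 16 clock genes 7 lay above HS14 at HS21 and 2 below, at an unadjusted *P* under 0.05 in edgeR. *Npas2* was at 5.88 ± 1.67 on LS, 12.7 ± 8.22 at HS14 and 3.09 ± 1.64 at HS21, and *Per3* at 82.2 ± 12.7, 50.9 ± 5.43 and 93.4 ± 36.8.

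**Figure D5:**
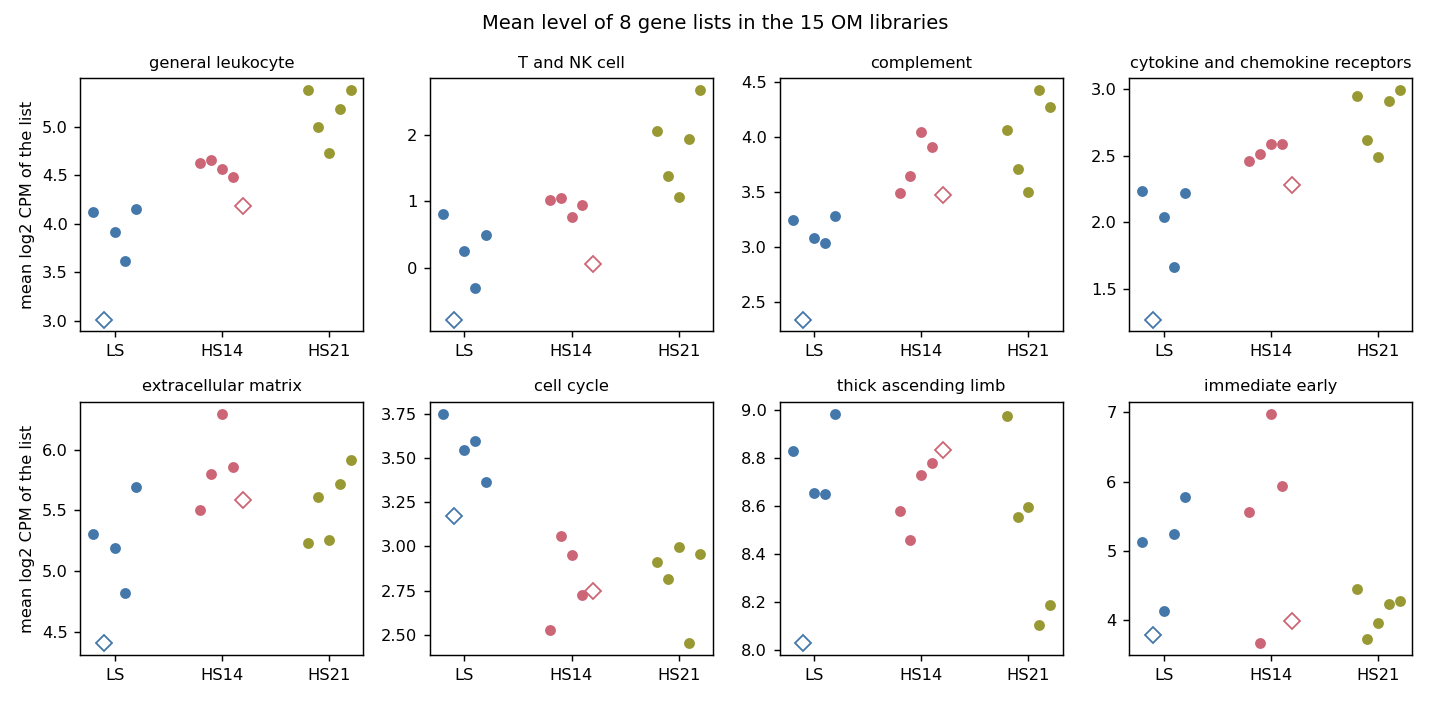
Mean log2 CPM of the members of 8 gene lists in the 15 OM libraries on LS, HS14 and HS21 (one point per library). The general leukocyte, complement and receptor lists are higher at HS14 than on LS and the cell cycle list is lower, the general leukocyte list is higher again at HS21, and the thick ascending limb list overlaps between the groups.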

How the data were processed

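RNA of snap frozen right kidney pieces was extracted with Trizol, poly(A)-selected and sequenced without strand information. Per the labels and the methods, reads were aligned to Ensembl Rnor_6.0 with HISAT2 (2.0.5) and read pairs were counted per gene with featureCounts (1.5.0-p3). StringTie (1.3.3b) is listed in the submitters' processing notes. The authors deposited whole-number counts without normalization for 32545 genes, and these were the only values used. Beside them 30 per-sample columns of FPKM were not used, nor were the authors' group means, log2 fold changes, p-values and adjusted p-values from their DESeq2 comparisons. Antisense and overlapping genes cannot be separated in unstranded counts.

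Samples were grouped by the tissue and diet in the labels. The 5 libraries of a group are from separate rats according to the study. HS14 and LS of the OM were compared with edgeR (4.0.16, R 4.3.3) by TMM scaling, filterByExpr and the quasi-likelihood F-test without covariates. Benjamini-Hochberg adjustment ran over every tested gene, and genes with an adjusted *P* under 0.05 are called raised or lowered. The interaction was fitted to 20 libraries and HS21 against HS14 to 10. Levels are TMM-scaled CPM, with a prior count of 2 for log2 CPM. The scripts were tested on simulated counts. Alternatives were DESeq2 (1.42.0), limma voom with quality weights (3.58.1), other scalings, no filter, more libraries, a proximal tubule covariate and libraries left out.

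The members and the 47 gene lists were chosen with earlier results of these data known, so lists are described by counts and medians without a test. Of 577 listed symbols 566 were found, 7 under an older symbol, and 11 were not analysed here. Named genes are those called with 10 or 8 libraries, per direction the 10 protein-coding genes with the largest log2 ratio among those with a mean of at least 1 CPM, an unadjusted *P* under 0.05 and no overlap, up to 4 members per list with the smallest *P* and defining markers, genes named in the study's text, and those with the smallest *P* in the interaction and between the times. Some genes that this rule names are not reported here. Promoters come from a RefSeq table on build GRCr8, matched by symbol, and no coordinates were moved between builds.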

Additional observations from a re-analysis of the deposited data

Results flagged for a closer look

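A sample was flagged where its gap to the nearest of its group, divided by the range of the group, passed Dixon's critical value for 5 samples. Of 292 groups examined (98 named genes, 47 list means and the total count, each in LS and HS14) 22 were flagged, and chance flags about 1 in 20. LS replicate 2 accounted for 10 of them, HS14 replicate 10 for 10 and LS replicate 5 and HS14 replicate 7 for 1 each.

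In log2 CPM, LS replicate 2 was high for the distal convoluted and connecting tubule list (3.81, nearest 1.68), *Slc12a3* (8.55) and *Robo3* (4.91). It was low for the lists of thin limb (4.62, nearest 8.52), neutrophil and mast cell (-2.21), complement (2.37, nearest 3.03) and osmolyte genes (4.81), and for *Slc12a1* (11.26), *Sphkap* (4.06) and *RT1-Da* (6.06).

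HS14 replicate 10 was low for the lists of T and NK cell (0.0516, nearest 0.77), erythroid (1.41), adipocyte (0.350), innate sensing (1.62), tubular injury (4.56), TCA cycle (7.57), nuclear respiratory chain (7.34, nearest 8.60) and hypoxia genes (4.01), and for *RT1-Db1* (2.57, nearest 5.67). It was high for *Pmepa1* (7.25, nearest 5.84). *Ciita* was low in HS14 replicate 7 (3.45) and *Scnn1b* high in LS replicate 5 (6.06).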

How the results depend on the processing

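The comparison of HS14 with LS in the OM gave 1 raised and 0 lowered genes with 10 libraries. Counts of raised and lowered genes were 4 and 2 without LS replicate 2 and HS14 replicate 10, 90 and 20 in DESeq2, 163 and 68 in limma voom with quality weights, 0 and 0 with total counts, 1 and 0 with DESeq2's size factors, 0 and 0 without a filter, 2 and 0 with all 15 OM libraries, 5 and 0 with 13 of them, and 25 and 1 with the proximal tubule level as covariate. With each library left out in turn they were 0 to 4 and 0 to 0, with the 4 raised genes appearing without HS14 replicate 10 and 0 without any other library. An alternative added after the data were seen left out each of the 8 libraries in turn and gave 0 to 1 raised and 0 to 1 lowered genes. DESeq2 and the weighted test shared 64 raised genes (71.1% and 39.3% of their calls) and 14 lowered genes (70% and 20.6%). The cause of these differences was not tested.

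The interaction gave 0 and 0 genes in each edgeR alternative and with each of the 20 libraries left out, and 8 and 3 in DESeq2. With the replicate block on the number shared by Cx and OM it gave 0 and 0. Correlations of same-numbered libraries lay between -0.0778 and 0.148, so not every pair passed 0.1, and no source used here states that equal numbers mean the same rat. As a hint from the data, 7 of 10 OM libraries correlated best with their own number, and the study dissected both tissues from the kidneys it collected. The P values without the block take the tissues as independent samples. HS21 against HS14 gave 0 raised and 0 lowered genes, 20 and 11 in DESeq2, and 0 to 1 and 0 to 0 with a library left out, the 1 raised gene without OM HS21 replicate 14.

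Among the values of single named genes under the alternatives, 19 changed sign, all in genes that were not called. Without both libraries, and with 13 OM libraries, *Slc12a1* was at -0.12 and -0.12, *Slc9a3* at -0.15 and -0.15 and *Slc12a3* at 0.35 and 0.35. In limma voom *Slc12a3* was at 0.10, and with total counts *Slc9a3* was at -0.044. With a library left out the ranges were -0.19 to 0.31 for *Slc9a3*, -2.79 to 0.32 for *Slc12a3*, -0.21 to 0.041 for *Scnn1a*, -0.014 to 0.35 for *Scnn1b*, -0.079 to 1.01 for *Fos* and -0.16 to 0.63 for *Egr1*. The call of *Chi3l1* was lost in 11 settings. The low depth of HS14 replicate 10 limits what can be seen of sparse genes in that library.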
